A study of Mus musculus with 4 samples.

Results

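The interleukin 1 system was described here through 9 genes: the cytokines Il1a and Il1b, their secreted antagonist Il1rn, the sensor Nlrp3 and the protease Casp1 that prepare the cytokine for release, the signalling receptor Il1r1 with its partner chain Il1rap, the decoy receptor Il1r2, and Il1rl1, the receptor of the related cytokine interleukin 33. They were picked by symbol from the 31253 features of the deposited count matrices, by a rule that reads no values, and all 9 were found. Interleukin 1 alpha and beta bind the same receptor, which needs the partner chain to signal through MyD88; the antagonist occupies that receptor without signalling, and the decoy receptor binds the cytokine without passing a signal on. Interleukin 1 beta is made as an inactive precursor that caspase-1 cuts once an inflammasome such as that of Nlrp3 has formed, so its mRNA is not a measure of the released cytokine. In tumours the cytokine is known mainly as a product of myeloid cells, while the receptors are found on other cells, among them subsets of lymphocytes.

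The series compared immune cells of tumours in Ufl1 conditional knockout (cKO) and wild type (WT) mice, and its title places the loss of Ufl1, which encodes the UFM1 ligase, in T cells. MC38 mouse colon carcinoma cells were placed under the skin, 100000 per mouse, in animals of 8 weeks. Tumours were removed on day 16, dissociated, frozen and thawed, and CD45+ cells were read by droplet sequencing in 2 cKO libraries and 2 WT libraries with no other treatment. Which Cre was used and which exons it removes is not in the labels, nor do they say whether each library is a separate animal, so the p-values below measure the spread between libraries, which may be technical.

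The 4 matrices held 32801 barcodes and 64141857 to 79747752 UMIs (unique molecules) per library. After cell filters and removal of doublets 30279 cells were kept, of which 25224 fell into 15 classes named from fixed markers, and 5055 cells (16.7%) stayed outside. The defining markers stood where the names put them: Foxp3 averaged 568 CPM in Treg-like cells, Cd209a 399 CPM in cDC2-like cells, Xcr1 101 CPM in cDC1-like cells and C1qa 4067 CPM in macrophage-like cells. An exception was Ly6c2, at 6092 CPM in pDC-like and 3839 CPM in monocyte-like cells. In neutrophil-like cells the summed neutrophil markers were 15570 and 77834 CPM in cKO libraries, against 12499 and 48674 CPM in WT libraries. In mast or basophil-like cells basophil markers summed to 1842 and 5634 CPM, against 2548 and 1876 CPM. Mast markers there summed to 435 and 1991 CPM, against 2741 and 733.5 CPM. NK markers were also present in that class, at 2589 and 1237 CPM, against 4117 and 2200.5 CPM. In T-like cells Ufl1 stood at 14.3 and 19.9 CPM in cKO libraries, against 17.2 and 16.7 CPM in WT libraries, so the groups overlapped and the reads do not separate the genotypes; 3' tags outside a deleted part would not show the deletion. The cKO replicate 2 library stood apart from the other 3, with Xist at 291 CPM against 0.128 to 1.03 CPM. Ddx3y had 11 UMIs there, against 2865 to 3357 UMIs in the other libraries. Both genes are sex-linked, the difference lies within the cKO group, and its part in the genotype comparison was not tested. In all, 902 barcodes occurred in more than 1 library.

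In the annotation used (GENCODE M21 on GRCm38) several of the genes are neighbours. Il1a and Il1b sit side by side on the minus strand of chromosome 2 (chr2:129299610-129309972 and chr2:129364570-129371139), and Il1rn lies elsewhere on the plus strand of that chromosome (chr2:24336853-24351494). On the plus strand of chromosome 1 lie the receptor genes Il1r2 (chr1:40074079-40125231), Il1r1 (chr1:40225080-40317257) and Il1rl1 (chr1:40429570-40465415). Il1rap lies at chr16:26581704-26730117, Nlrp3 at chr11:59541568-59566956 and Casp1 at chr9:5298517-5307265, all on the plus strand.

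Across the 15 classes the levels of Nlrp3 and Il1rn were correlated with those of Il1b (Pearson r of 0.92 and 0.82 on the log2(CPM + 1) scale, a description over classes that share libraries), although mast or basophil-like, cDC2-like and cDC1-like cells were low in Il1rn for their Il1b. Il1rl1 was found mainly in 2 classes of unlike lineage. For these genes the 250 bases before a RefSeq start (GRCm38.p6) are printed 5′ to 3′. Capitals mark matches, searched on both strands, to short motifs of 5 kinds: the TATA box and the sites of NF-kB, PU.1, C/EBP and GATA factors.
Il1b, chr2:129371140-129371389, minus strand: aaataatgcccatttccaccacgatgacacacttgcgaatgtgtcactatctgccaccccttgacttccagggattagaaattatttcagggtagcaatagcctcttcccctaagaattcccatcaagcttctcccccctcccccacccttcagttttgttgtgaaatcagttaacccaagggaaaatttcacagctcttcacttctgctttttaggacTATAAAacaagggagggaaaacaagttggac
Il1rn, first start, chr2:24336610-24336859, plus strand: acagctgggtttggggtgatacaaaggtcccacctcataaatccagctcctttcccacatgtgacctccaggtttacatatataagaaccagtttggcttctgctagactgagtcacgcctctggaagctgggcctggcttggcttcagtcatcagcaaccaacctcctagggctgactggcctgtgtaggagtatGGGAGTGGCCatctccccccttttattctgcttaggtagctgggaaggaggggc
Nlrp3, first start, chr11:59541319-59541568, plus strand: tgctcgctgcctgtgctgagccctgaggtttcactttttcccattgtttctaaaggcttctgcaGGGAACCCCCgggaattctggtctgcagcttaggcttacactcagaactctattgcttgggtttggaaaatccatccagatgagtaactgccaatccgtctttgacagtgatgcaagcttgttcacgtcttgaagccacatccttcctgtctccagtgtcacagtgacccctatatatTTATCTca
Il1rl1, first start, chr1:40429320-40429569, plus strand: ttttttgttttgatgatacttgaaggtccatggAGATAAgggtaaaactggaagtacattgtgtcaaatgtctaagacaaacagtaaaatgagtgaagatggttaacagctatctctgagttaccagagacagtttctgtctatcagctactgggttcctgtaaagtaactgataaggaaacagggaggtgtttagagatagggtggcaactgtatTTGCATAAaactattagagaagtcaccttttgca
Il1rl1, second start, chr1:40439379-40439628, plus strand: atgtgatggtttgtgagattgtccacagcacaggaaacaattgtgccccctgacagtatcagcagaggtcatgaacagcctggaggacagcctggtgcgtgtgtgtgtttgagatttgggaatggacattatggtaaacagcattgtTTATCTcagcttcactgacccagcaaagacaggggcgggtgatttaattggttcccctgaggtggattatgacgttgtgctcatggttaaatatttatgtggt
The Il1b promoter held a TATA box (TATAAA) whose first base lay 31 bases before the start, a motif found in 12.4% of 32851 promoters of this length. The NF-kB motif was read as GGGA and CC with any 4 bases between them. The first start of Il1rn had such a match 54 bases before it and the first start of Nlrp3 had one at 186 bases, against 17.6% of promoters with such a match. The 2 other Il1rn starts and the second Nlrp3 start, whose stretches are not printed, had no such match, and those of Il1rn had none of the 5 motifs. The GATA motif was AGATAA. Both Il1rl1 starts had it, at 217 bases on the printed strand and at 103 bases on the other strand, and 9.99% of promoters have one. The first start also had the C/EBP motif TTGCNNAA at 34 bases (9.56% of promoters). The PU.1 motif, GAGGAA, was in none of the printed stretches and is in 23.3% of promoters; the second Nlrp3 start had 3 matches to it, at 36 and 220 bases and, on the other strand, at 129 bases. None of these motifs overlaps another in the printed stretches. The first Nlrp3 start also had a GATA match on the other strand, 8 bases before it. The matches describe letters only, and 3' tags do not tell which start was used.

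The levels below are CPM, the UMIs of a gene per 1000000 UMIs summed over the cells of a class in a library, given by genotype with replicate 1 before replicate 2. In such sums fewer expressing cells and less RNA per cell cannot be told apart, and levels are compared only within a gene. The members were left out of the genes used for clustering, but the classes were drawn from the same cells.

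**Figure D1:**
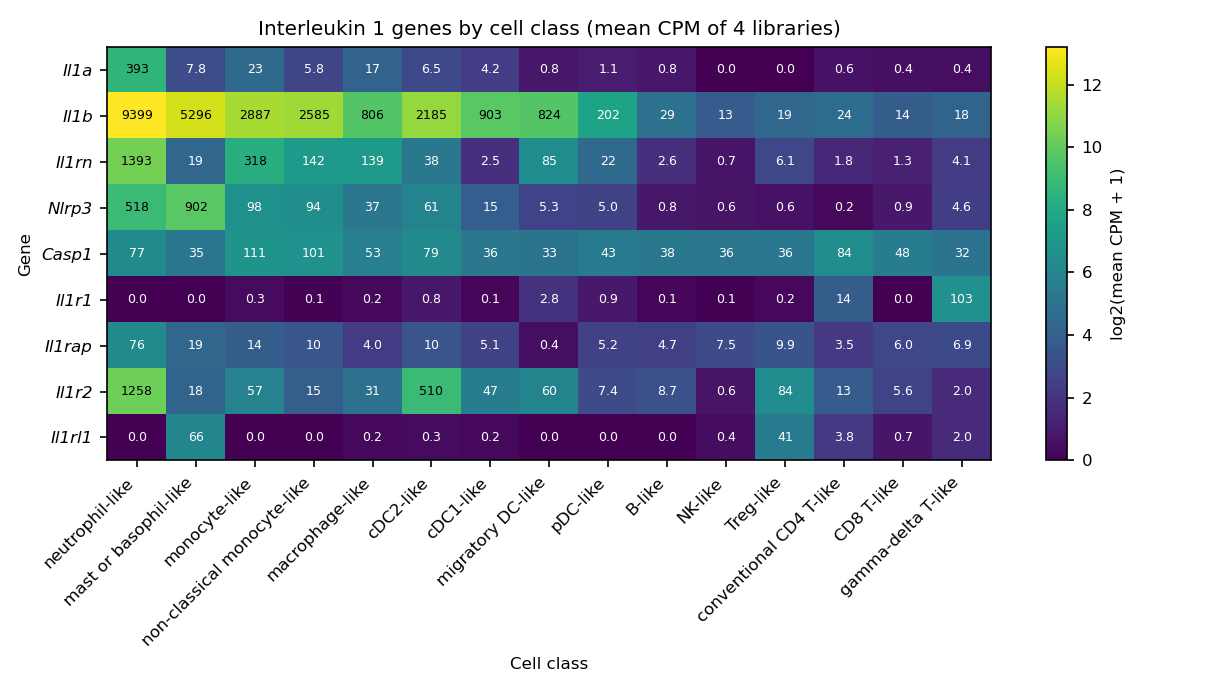
Mean level of each gene (down) in each of 15 cell classes (across), as CPM averaged over 4 libraries; the number in a cell is the mean CPM and the colour its log2(CPM + 1). Il1b, Il1rn, Nlrp3 and Il1r2 are brightest among myeloid classes (9399 CPM for Il1b in neutrophil-like cells), whereas Il1r1 is brightest in gamma-delta T-like cells (103 CPM) and Il1rl1 in mast or basophil-like cells (66.4 CPM) and Treg-like cells (41.3 CPM).

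Il1b, the main secreted ligand, was abundant in myeloid classes and low in every lymphocyte class. Neutrophil-like cells were highest, at 8381 and 8488 CPM in cKO libraries and 5891 and 14835 CPM in WT libraries, from 121 cells in all, and mast or basophil-like cells (127 cells) followed at 7132 and 5509 CPM, against 4637 and 3907 CPM. In monocyte-like cells Il1b stood at 2861 and 2566 CPM, against 3137 and 2984 CPM, and it was detected in 88.3% to 90.1% of cells of a library. Non-classical monocyte-like cells (2585 ± 343 CPM, SD, n = 4) overlapped both monocyte-like and cDC2-like cells (2185 ± 281 CPM), and the step from cDC2-like to cDC1-like cells (903 ± 233 CPM) was without overlap. Relative to their mean, migratory DC-like cells varied most among libraries, with 414 and 1545 CPM in cKO libraries and 813 and 522 CPM in WT libraries. Macrophage-like cells averaged 806 ± 126 CPM and pDC-like cells 202 ± 26.9 CPM, and these did not overlap. The last levels moved with the choice of cells: macrophage-like cells stood at 1869 CPM when gated one by one on markers and 1208 CPM with doublets kept, and pDC-like cells at 57.2 and 517 CPM. B-, T- and NK-like classes held 13.5 to 29.2 CPM on average; Il1b was seen in 7.95% to 12.0% of B-like cells (median 3358 UMIs), which should lack it, so shares near this are read as background. Thinned to 2000 UMIs per cell, the share was 77.5% to 81.8% in monocyte-like and 5.08% to 7.43% in B-like cells, with 187 and 68 shallower cells left out.

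Il1a, the second ligand, which acts without caspase-1, was far more narrowly placed. Neutrophil-like cells had 778 and 283 CPM in cKO libraries and 175 and 334 CPM in WT libraries, resting on 165 UMIs. Monocyte-like cells averaged 22.5 ± 11.1 CPM (SD, n = 4) and macrophage-like cells 17.2 ± 5.53 CPM, with overlapping ranges, and no other class averaged above 7.76 CPM. In Treg-like cells no Il1a UMI was found, which at 3 counts allows up to 2.57 to 6.61 CPM in a library.

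Il1rn, the receptor antagonist, was also highest in neutrophil-like cells, at 1317 and 1284 CPM in cKO libraries and 1243 and 1729 CPM in WT libraries. Monocyte-like cells came next without overlap (378 and 301 CPM, against 361 and 232 CPM), then non-classical monocyte-like (142 ± 21.1 CPM) and macrophage-like cells (139 ± 8.55 CPM), which overlapped. The order was not that of Il1b. Mast or basophil-like cells, second for Il1b, held 19.4 ± 16.2 CPM of Il1rn on 16 UMIs, cDC2-like cells held 38.3 ± 13 CPM and cDC1-like cells 2.46 ± 2.25 CPM, while macrophage-like cells, with a lower mean of Il1b than these 3 and a range that overlapped that of cDC1-like cells, were above them without overlap. With doublets kept, the mean of Il1b was 1208 CPM in macrophage-like and 959 CPM in cDC1-like cells, so that order turned. Per 100 Il1b UMIs, cDC2-like cells had 1.76 ± 0.56 Il1rn UMIs, and mast or basophil-like and cDC1-like cells 0.34 each (SD 0.20 and 0.39). Monocyte-like cells had 11 ± 2.31 and macrophage-like cells 17.6 ± 3.25 (SD, n = 4).

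**Figure D2:**
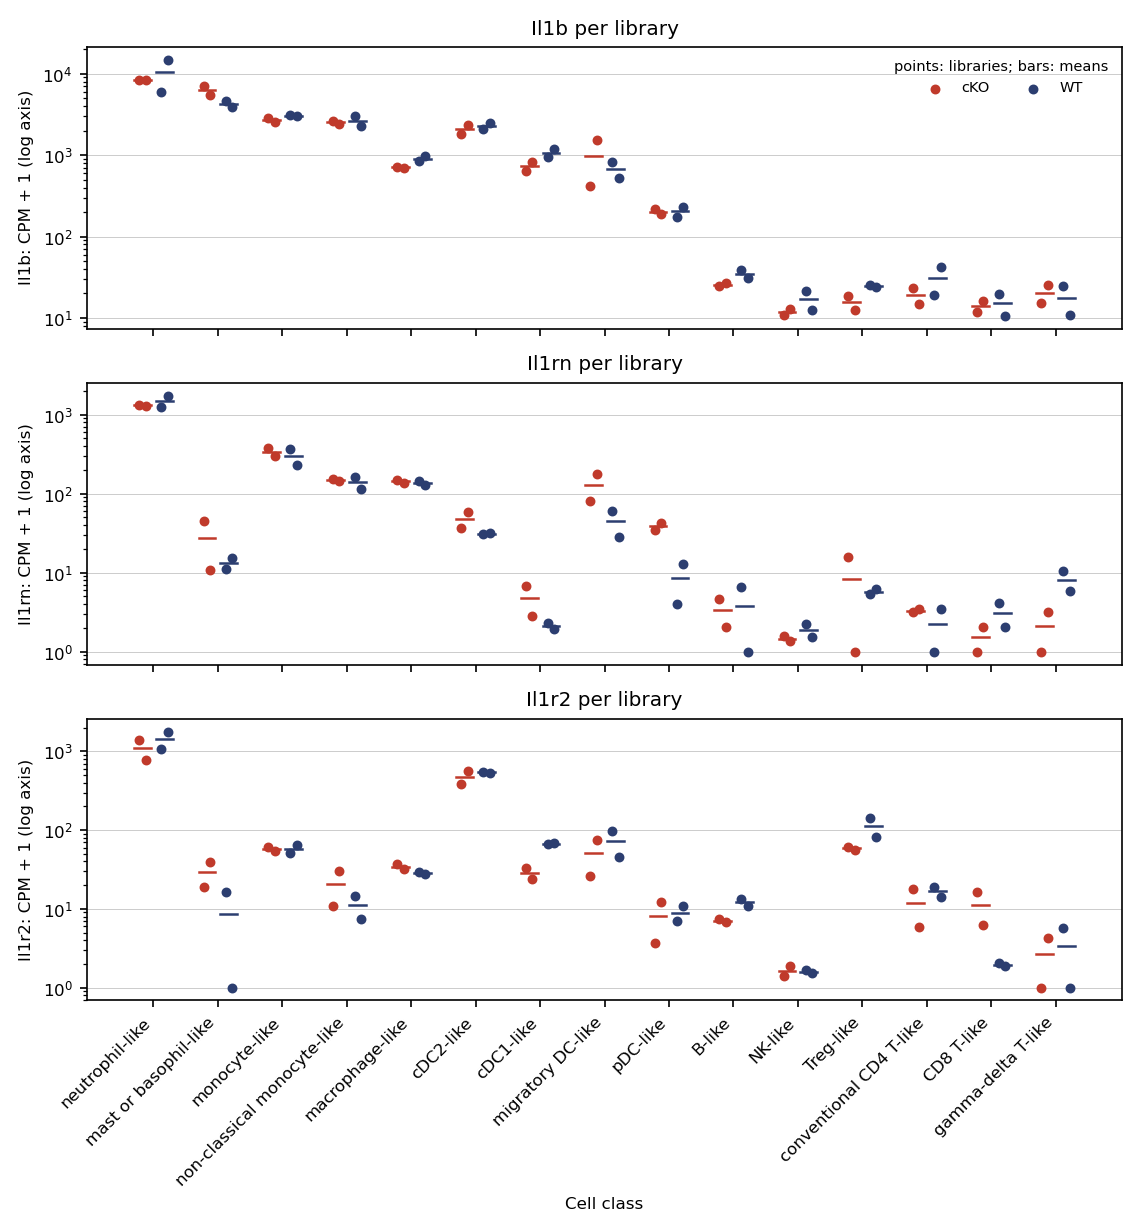
Il1b, Il1rn and Il1r2 per library in each cell class, as CPM + 1 on a log axis, with cKO libraries (red) left of WT libraries (blue); points are libraries and bars are group means. For Il1b the step between macrophage-like (806 CPM) and monocyte-like cells (2887 CPM) exceeds the distance between the groups in either class, and the groups stand apart for Il1rn in pDC-like cells and for Il1r2 in cDC1-like cells.

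The 3 macrophage-like clusters did not share one balance of cytokine and antagonist. The cluster led by Mmp12 and Pmp22 had little Il1b, 112 and 100 CPM in cKO libraries and 136 and 97.7 CPM in WT libraries, but Il1rn at 284 and 358 CPM, against 361 and 299 CPM. The cluster led by Tmem119 and complement C1q genes had the reverse, Il1b at 1661 and 1402 CPM, against 1619 and 2017 CPM, with Il1rn at 93.5 and 63.0 CPM, against 71.3 and 103 CPM. No library of either cluster entered the range of the other for either gene. Il1rn UMIs per 100 Il1b UMIs were 295 ± 46.9 in the Mmp12 cluster and 4.90 ± 0.57 in the Tmem119 cluster (SD, n = 4). The cluster led by cell cycle genes was low in both, with Il1b at 74.1 and 257 CPM, against 86.2 and 112 CPM, and Il1rn at 52.7 to 70.1 CPM. Median depth was 3428 UMIs per cell in the Mmp12 cluster and 10880 in the Tmem119 cluster, and its part in the difference was not tested.

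Among monocyte-like clusters the differences were smaller. The cluster led by Spp1 and Arg1 held the most Il1b (3431 and 3120 CPM in cKO libraries, 3695 and 3875 CPM in WT libraries), and the cluster led by interferon-induced genes such as Rsad2 and Ifit3 held the most Il1rn (501 and 392 CPM, against 576 and 371 CPM). Casp1 was also highest there, at 159 and 172 CPM, against 161 and 159 CPM, while the Spp1 cluster had 69.9 and 94.1 CPM, against 65.9 and 72.4 CPM. These clusters took unequal parts of the class: the interferon cluster made up 35.3% and 54.5% of monocyte-like cells in cKO libraries and 20.1% and 30.6% in WT libraries, and the part of that share in the class levels was not tested.

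**Figure D3:**
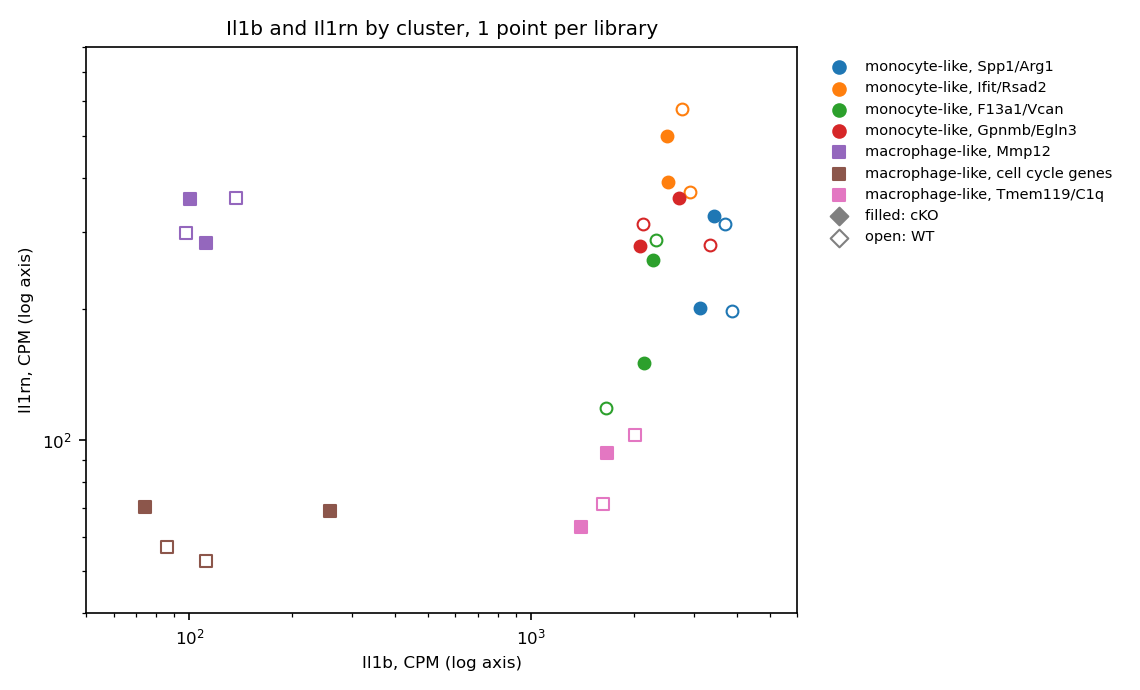
Il1b (across) against Il1rn (up), both as CPM on log axes, in the 4 monocyte-like clusters (circles) and 3 macrophage-like clusters (squares); each point is a library, filled for cKO and open for WT. The Mmp12 cluster sits at low Il1b (97.7 to 136 CPM) and high Il1rn (284 to 361 CPM), away from the Tmem119 cluster (1402 to 2017 CPM of Il1b).

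Nlrp3, the sensor, was highest in mast or basophil-like cells, with 877 and 879 CPM in cKO libraries and 1243 and 607 CPM in WT libraries, and was seen in 92.3% to 95.3% of these cells, against 0% to 0.548% of B-like cells. Neutrophil-like cells (514 and 323 CPM, against 599 and 636 CPM) overlapped them, and when cells were gated one by one on markers neutrophil-like cells came first, at 1067 CPM against 1040 CPM. Monocyte-like (98.0 ± 10.4 CPM) and non-classical monocyte-like cells (93.7 ± 6.52 CPM) overlapped, followed without overlap by cDC2-like (60.9 ± 5.03 CPM), macrophage-like (36.7 ± 1.59 CPM) and cDC1-like cells (14.6 ± 1.63 CPM). Across the 15 class means Nlrp3 and Il1b had a Pearson r of 0.92 on the log2(CPM + 1) scale, a description over classes that share libraries.

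Casp1 had the flattest profile. Its class means spanned 31.6 to 111 CPM, with monocyte-like (111 ± 20.5 CPM) and non-classical monocyte-like cells (101 ± 8.27 CPM) at the top. Conventional CD4 T-like cells stood at 81.7 and 76.8 CPM in cKO libraries and 90.1 and 87.4 CPM in WT libraries, overlapping the cDC2-like and neutrophil-like classes, although they held 1 Nlrp3 UMI in all.

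Il1r1, the signalling receptor, was nearly absent from the cells that make the ligand. Gamma-delta T-like cells, a cluster led by Cd163l1, Trgv6 and Il17a, had 98.6 and 80.5 CPM in cKO libraries and 110 and 123 CPM in WT libraries, and 33.3% to 42.9% of its cells held a UMI, against 0% to 0.274% of B-like cells. Conventional CD4 T-like cells, with Il17a and Il22 among their leading genes, had 15.3 and 17.2 CPM, against 9.01 and 15 CPM, and no other class averaged above 2.77 CPM. Treg-like cells had 1 UMI in all 4 libraries. No UMI was seen in CD8 T-like cells, which at 3 counts allows up to 0.642 to 3.14 CPM in a library, nor in neutrophil-like and mast or basophil-like cells, where the limit is looser (10.9 to 43.9 CPM). Monocyte-like cells had 28 UMIs in all, 0.319 ± 0.132 CPM.

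Il1rap, the partner chain shared by the receptors of interleukin 1 and interleukin 33, was low in all classes. Neutrophil-like cells averaged 76.4 ± 31.7 CPM on 37 UMIs, and every other class stood at 19.3 CPM or less. Monocyte-like cells had 13.2 and 13.9 CPM in cKO libraries and 14.9 and 13.2 CPM in WT libraries, gamma-delta T-like cells 6.94 ± 1.09 CPM, and migratory DC-like cells a single UMI.

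Il1r2, the decoy receptor, stood apart in neutrophil-like and cDC2-like cells. Neutrophil-like cells were highest (1405 and 775 CPM in cKO libraries, 1067 and 1786 CPM in WT libraries; 2337 CPM on average in gated cells). cDC2-like cells followed without overlap, at 385 and 564 CPM, against 554 and 538 CPM, with UMIs in 60.3% to 64.7% of cells, and Il1r2 was among the 10 leading genes of that cluster although it was left out of the clustering; gated cells had 295 CPM. Treg-like cells had 60.8 and 55.3 CPM, against 141 and 80.5 CPM, in the range of migratory DC-like (60.5 ± 31.6 CPM), monocyte-like (57.0 ± 6.26 CPM) and cDC1-like cells (46.9 ± 22.6 CPM). Of Treg-like cells 13.4% to 20.5% held a UMI (median depth 4125), against 1.16% to 3.65% of B-like cells.

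Il1rl1, the interleukin 33 receptor, was found in mast or basophil-like cells, at 127 and 29.0 CPM in cKO libraries and 81.5 and 28.2 CPM in WT libraries on 56 UMIs, and in Treg-like cells, at 44.5 and 42.2 CPM, against 52.9 and 25.7 CPM on 113 UMIs. Their ranges overlapped, and every other class averaged 3.82 CPM or less. B-like, migratory DC-like, pDC-like, neutrophil-like and non-classical monocyte-like cells held no UMI of it.

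Genes with the most similar profile over the 60 sums per class and library were sought among 10453 genes by Pearson r of log2(CPM + 1); points of a library share its depth. Nfe2l2 (0.94), Ier3 (0.93) and Alox5ap (0.92) led for Il1b, Atp6v0c (0.91) and Slfn4 (0.90) for Il1rn, and Ccl6 and Ier3 (0.95 each) for Nlrp3, followed further down by Il1b itself (0.91). Ppp1r14c (0.95) and Il23r (0.93), a receptor chain for interleukin 23, led for Il1r1. Il1a was most like Trem1 (0.88), Casp1 most like Casp4 (0.75) and Il1rl1 most like Alox8 (0.82). For Il1r2 and Il1rap no gene exceeded 0.74 (Snx20 and Egr1).

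Differences between related classes were then tested with edgeR's quasi-likelihood test on the summed counts with the library as a block, adjusted by Benjamini-Hochberg over all genes tested. Treg-like cells were set against conventional CD4 T-like cells to ask how the receptors divide among CD4 T cells. Of 4 members tested 3 passed, where 31.4% of 7498 genes did: Il1r2 was higher in Treg-like cells by 2.40 ± 0.22 on the log2 scale (SE; adjusted p = 6.15e-09) and Il1rl1 by 3.01 ± 0.37 (4.75e-07), while Casp1 was lower (-1.41 ± 0.17, 3.38e-07). Il1r1 went the other way, 1 UMI in Treg-like and 66 UMIs in conventional CD4 T-like cells, and did not pass the filter on low counts; without that filter its adjusted p was 2.01e-12. In cells gated one by one on markers the Il1r2 difference was smaller but passed (0.68 ± 0.20, adjusted p = 0.0252), and without WT replicate 1 Il1b passed as lower (-0.76, adjusted p = 0.0456), which it did not with all libraries (-0.59 ± 0.26, adjusted p = 0.0919). In the other IL-1 family receptors, Il18r1, a chain of the interleukin 18 receptor, was also lower in Treg-like cells (-0.75 ± 0.12), and Sigirr, a negative regulator, differed by 0.37 ± 0.16 without passing (adjusted p = 0.0920).

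Macrophage-like cells were then set against monocyte-like cells. All 7 members tested were lower in macrophage-like cells, where 70.3% of 11071 genes passed (3874 higher, 3911 lower); the members' median log2 difference was -1.26, against 0.01 over all genes. Il1b differed by -1.94 ± 0.06 (adjusted p = 2.73e-12), Il1rap by -1.96 ± 0.15, Nlrp3 by -1.48 ± 0.08, Il1rn by -1.26 ± 0.08 and Il1r2 by -1.01 ± 0.10. In gated cells the differences of 6 members passed but were smaller (Il1b -0.49 ± 0.09, adjusted p = 0.00125; Il1rn -0.48 ± 0.10), and Il1a did not pass (-0.28 ± 0.13, adjusted p = 0.0950). Of the inflammasome and processing genes 11 of 14 were lower and none higher (median -0.77), and of NF-kB feedback and IL-1 responsive genes 14 of 16 were lower and 1 higher (median -1.21). The early response and heat shock genes that dissociation induces were lower too (11 of 12, median -1.51), and median depth was 4770 against 10179 UMIs per cell; their part in the result was not tested.

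Monocyte-like against cDC2-like cells separated the antagonist from the decoy. All 7 members passed, where 64.7% of 11085 genes did: Il1rn was higher in monocyte-like cells by 3.15 ± 0.15 and Il1a by 1.86 ± 0.14, whereas Il1r2 was lower (-3.07 ± 0.10, adjusted p = 1.94e-10). Il1b differed least of the 7, by 0.49 ± 0.07. In gated cells Il1r2 was at -1.49 ± 0.08 and passed, and Il1rap did not (0.35 ± 0.14, adjusted p = 0.0517). Of the family's other members, Il18 was higher in monocyte-like cells (2.73 ± 0.07) and Sigirr lower (-3.04 ± 0.15).

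Within dendritic cells, cDC2-like exceeded cDC1-like cells in 6 of 7 members, where 48.1% of 9699 genes passed. Il1rn (3.72 ± 0.27) and Il1r2 (3.42 ± 0.14) differed most, then Nlrp3 (2.0 ± 0.14) and Il1b (1.27 ± 0.07), and Il1a (0.62 ± 0.36, adjusted p = 0.167) did not pass; it passed without WT replicate 2 (1.1, adjusted p = 0.0221) or with doublets kept (0.93, 0.0399). Il1rap passed at 0.98 ± 0.28, but not without cKO replicate 1 (adjusted p = 0.0535) or with DESeq2 (0.0549). Migratory DC-like cells, the Ccr7 and Fscn1 state that travels to lymph nodes, differed from cDC2-like cells in 7 of 7 members, where 50% of 9628 genes passed. Of these 6 were lower, among them Nlrp3 (-3.56 ± 0.34), Il1r2 (-3.04 ± 0.19) and Il1b (-1.49 ± 0.22). Il1rn alone was higher (1.18 ± 0.22), but not in every library. In WT replicate 2 it stood at 27.4 CPM in migratory DC-like and 30.6 CPM in cDC2-like cells. Its highest migratory DC-like level was in cKO replicate 2 (174 CPM), and the ranges of the 2 classes overlapped. Il1a was lower by the test (-2.92 ± 0.73) but not with doublets kept (-0.94, adjusted p = 0.210), and Il1r2 was at -1.56 ± 0.19 in gated cells. Of the inflammasome and processing list 10 of 14 were lower and 1 higher. Dissociation and heat shock genes moved as well: 11 of 12 were higher in cDC2-like than in cDC1-like cells (median 1.08), and 11 of 12 were lower in migratory DC-like than in cDC2-like cells (median -1.13). Median depth per cell was 6500 UMIs in migratory DC-like, 12368 in cDC2-like and 11760 in cDC1-like cells. The part of these in the dendritic differences was not tested.

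**Figure D4:**
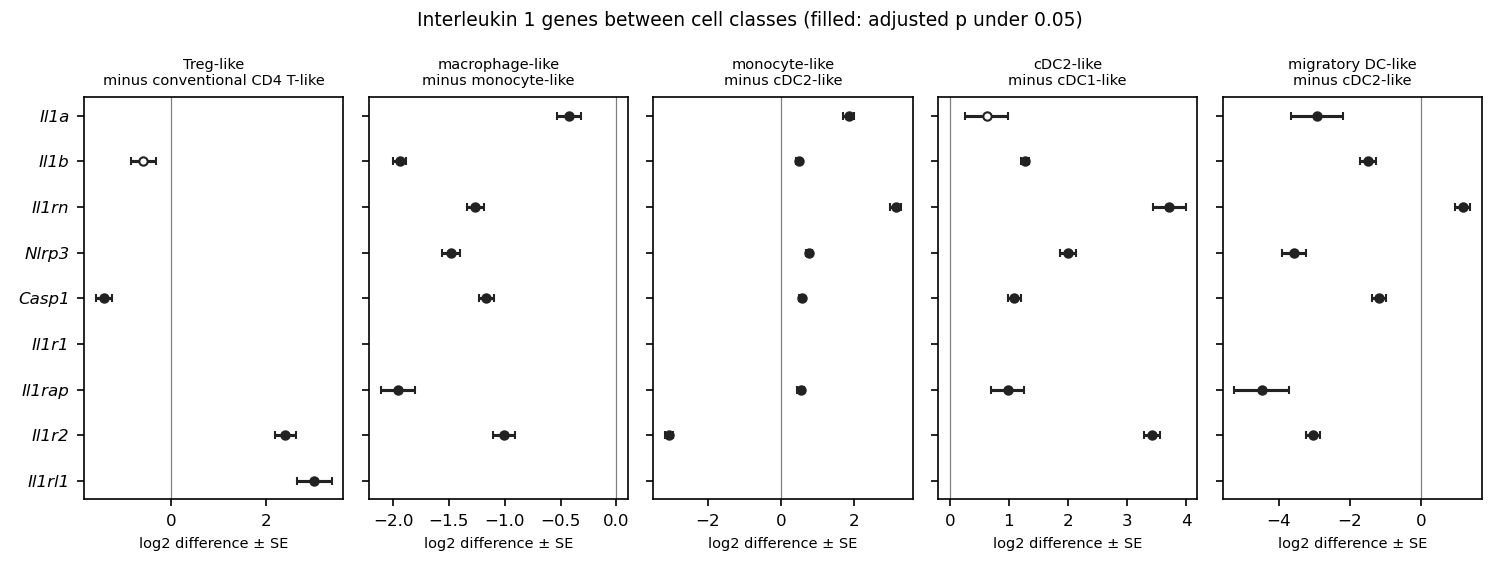
Log2 difference (across; scale differs between panels) of each gene (down) for 5 pairs of cell classes, the first class minus the second; bars are SE over 4 libraries, filled points have adjusted p under 0.05, and a gene with no point was not tested. In the monocyte-like minus cDC2-like panel Il1rn (3.15) and Il1r2 (-3.07) lie on opposite sides, and all points of the macrophage-like minus monocyte-like panel lie below 0.

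The genotype comparison asked whether loss of Ufl1 moved any of these genes within a class, in the 13 classes with at least 20 cells in every library. In 59 tests no member passed an adjusted p of 0.05 by edgeR's quasi-likelihood test, and DESeq2 called none either. The smallest adjusted p was 0.0927, and 10 of the 59 had an unadjusted p under 0.05, where 3.8% of all gene tests in these classes did (1.03% to 7.45% by class). Calls were rare over all genes too. In monocyte-like cells 0 of 7 members passed, where 0.00881% of 11347 genes did, and 0 of 7 passed in non-classical monocyte-like, macrophage-like and cDC2-like cells, where 0% did. For cDC1-like cells it was 0 of 4 (0.0401% of genes), for migratory DC-like cells 0 of 4 (0.123%) and for pDC-like cells 0 of 3 (0.0139%). Among lymphocytes it was 0 of 2 in B-like (0%), 0 of 3 in NK-like (0.0189%), 0 of 4 in Treg-like (0.0702%), 0 of 4 in conventional CD4 T-like (0.0127%), 0 of 4 in CD8 T-like (0%) and 0 of 3 in gamma-delta T-like cells (0%). Over all kept cells together 0 of 9 members passed, and 0% of 14086 genes.

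In the classes that carry most of the ligand, cKO and WT cells lay close. Il1b differed by -0.19 ± 0.16 in monocyte-like cells (log2 cKO over WT ± SE, adjusted p = 0.855) and by -0.19 ± 0.17 in cDC2-like cells. In macrophage-like cells it stood at 714 and 701 CPM in cKO libraries, against 839 and 970 CPM in WT libraries, lower in both cKO libraries, and the log2 fold change was -0.36 ± 0.14 (adjusted p = 0.999). Il1b was lower in both cKO libraries in 5 of 13 classes tested and higher in both in none. Among the 5 were the B-like class, read as background, and Treg-like cells, whose mean (19.2 CPM) is below that of B-like cells (29.2 CPM). Il1a in monocyte-like cells had 18.6 and 16.2 CPM, against 39.0 and 16.2 CPM. The difference (-0.66 ± 0.34) was carried by WT replicate 1, without which it was 0.035. Without the filter on low counts Il1a passed edgeR's quasi-likelihood test there (adjusted p = 0.0134). That setting called 0 to 271 genes per cKO against WT comparison, against 0 to 7 with the filter. Casp1 was higher in both cKO libraries in 3 of 13 classes and lower in both in 2. Groups lay apart in 20 of the 59 member tests. The share over all genes was not counted, so these counts are not read as a pattern.

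Il1rn was higher in both cKO libraries in 3 of the 6 classes tested (20 of all 59 member tests had groups apart). The share of all genes with groups apart was not counted, so this count is not read as a pattern. In cDC2-like cells it stood at 35.5 and 57.4 CPM, against 29.6 and 30.6 CPM in WT libraries, which gave 0.59 ± 0.20 on the log2 scale (adjusted p = 0.980). In migratory DC-like cells it had 80.6 and 174 CPM, against 59.8 and 27.4 CPM (1.56 ± 0.41, adjusted p = 0.370). In pDC-like cells 25 and 33 UMIs (33.3 and 41.6 CPM) stood against 3 and 11 UMIs (2.98 and 12.0 CPM), 2.35 ± 0.47 (adjusted p = 0.171). The groups do not overlap in these 3 classes, yet the counting intervals of the pDC-like libraries are wide: 21.6 to 49.2 and 28.7 to 58.5 CPM in cKO libraries, against 0.614 to 8.70 and 5.97 to 21.4 CPM in WT libraries (exact Poisson, 95%, counting error only). In pDC-like cells gated one by one on markers 3 and 0 UMIs of Il1rn were left in cKO libraries, against 0 and 3 UMIs in WT libraries, and the groups overlapped. With doublets kept the levels were 52.7 and 71.8 CPM, against 26.6 and 21.3 CPM. Leaving out each library in turn leaves 1 library in a group, so only fold changes are given. They ran from 1.60 to 3.64 in pDC-like, 0.89 to 2.19 in migratory DC-like and 0.23 to 0.86 in cDC2-like cells. Without the filter on low counts Il1rn passed edgeR's quasi-likelihood test in all 3 classes. The adjusted p was 9.67e-06 in pDC-like, 0.000439 in migratory DC-like and 0.0285 in cDC2-like cells. That setting called 0 to 271 genes per cKO against WT comparison, against 0 to 7 with the filter. Without cKO replicate 2, the library that stands apart, the fold changes were 2.19, 0.89 and 0.23 in pDC-like, migratory DC-like and cDC2-like cells.

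Markers of other cells were set beside these values in the same 3 classes, and did not go the same way in all. In migratory DC-like cells 5 of 7 monocyte markers were higher in both cKO libraries, with a summed level of 830 and 821 CPM, against 210 and 147 CPM, and Ly6c2 was called (240 and 367 CPM, against 16.9 and 19.6 CPM). In the same cells 5 of 8 NK markers were higher (387 and 432 CPM, against 53.7 and 43.0 CPM). In pDC-like cells 3 of 7 monocyte markers were higher and 2 lower, and their sum, led by Ly6c2, which these cells express, was 8577 and 9464 CPM, against 10214 and 10619 CPM. In cDC2-like cells 3 monocyte markers were higher and 1 lower (3053 and 4481 CPM, against 3117 and 3059 CPM). Monocyte-like cells carry 318 CPM of Il1rn, and the part of such RNA in the result was not tested.

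Il1r2 came closest to a call in cDC1-like cells. It had 32.4 and 22.8 CPM in cKO libraries (56 and 25 UMIs), against 64.8 and 67.5 CPM in WT libraries (99 and 73 UMIs), without overlap. The log2 fold change was -1.21 ± 0.23 (adjusted p = 0.0927 by edgeR's quasi-likelihood test). With each library left out in turn, which leaves 1 library in a group, it ran from -1.57 to -1.0. Il1b went the same way in that class, with 634 and 831 CPM, against 959 and 1189 CPM (-0.56 ± 0.15, adjusted p = 0.394). Over the libraries left out its fold change ran from -0.74 to -0.37. Without the filter on low counts both passed edgeR's quasi-likelihood test (adjusted p = 0.000599 for Il1r2 and 0.00627 for Il1b). That setting called 0 to 271 genes per cKO against WT comparison, against 0 to 7 with the filter. Markers of cDC2 cells, the class with most Il1r2 among dendritic cells, summed to 314 and 269 CPM in cDC1-like cells of cKO libraries, against 336 and 273 CPM. Macrophage markers differed more: 7 of 8 were higher in both cKO libraries (681 and 706 CPM, against 94.9 and 301 CPM), with C1qa at 119 and 120 CPM, against 11.8 and 44.4 CPM, called. Of the dissociation and heat shock genes 9 of 12 had an unadjusted p under 0.05 in that class (median log2 fold change -0.20, none called), where 318 of 7488 genes did. The part of these markers and genes in the result was not tested.

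In 2 T cell classes the decoy receptor had opposite signs, a difference that was not tested. Treg-like cells had 60.8 and 55.3 CPM of Il1r2 in cKO libraries, against 141 and 80.5 CPM in WT libraries, lower in both (-0.90 ± 0.28, adjusted p = 0.998). Over the libraries left out in turn the fold change ran from -1.28 to -0.56, and in cells gated on markers it was 0.01. CD8 T-like cells had 21 and 20 UMIs (15.4 and 5.18 CPM), against 1 and 4 UMIs (1.05 and 0.856 CPM), with 3.24 ± 0.82 (adjusted p = 0.9999); the WT libraries are at the level of a few molecules, and the neutrophil markers of that class summed to 0 and 10.1 CPM, against 0 and 0.214 CPM. Without cKO replicate 2 the values were -0.84 in Treg-like and 3.99 in CD8 T-like cells, neither passing. Without the filter on low counts the CD8 T-like difference passed edgeR's quasi-likelihood test (adjusted p = 0.00188). That setting called 0 to 271 genes per cKO against WT comparison, against 0 to 7 with the filter. In Treg-like cells the cDC2 markers Cd209a and Mgl2 were at 0 in all libraries and the whole cDC2 list summed to 40.1 and 24.8 CPM, against 55.1 and 25.7 CPM.

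None of the receptors passed the test for cKO against WT. Il1r1 in gamma-delta T-like cells was lower in both cKO libraries (98.6 and 80.5 CPM, against 110 and 123 CPM; -0.41 ± 0.26; 0.0083 in gated cells), and in conventional CD4 T-like cells higher in both (15.3 and 17.2 CPM, against 9.01 and 15 CPM; 0.34 ± 0.39). Il1rl1 in Treg-like cells overlapped between groups (0.25 ± 0.35). Nlrp3 could be tested in 5 classes, and its fitted differences ran from -0.14 to 0.03.

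**Figure D5:**
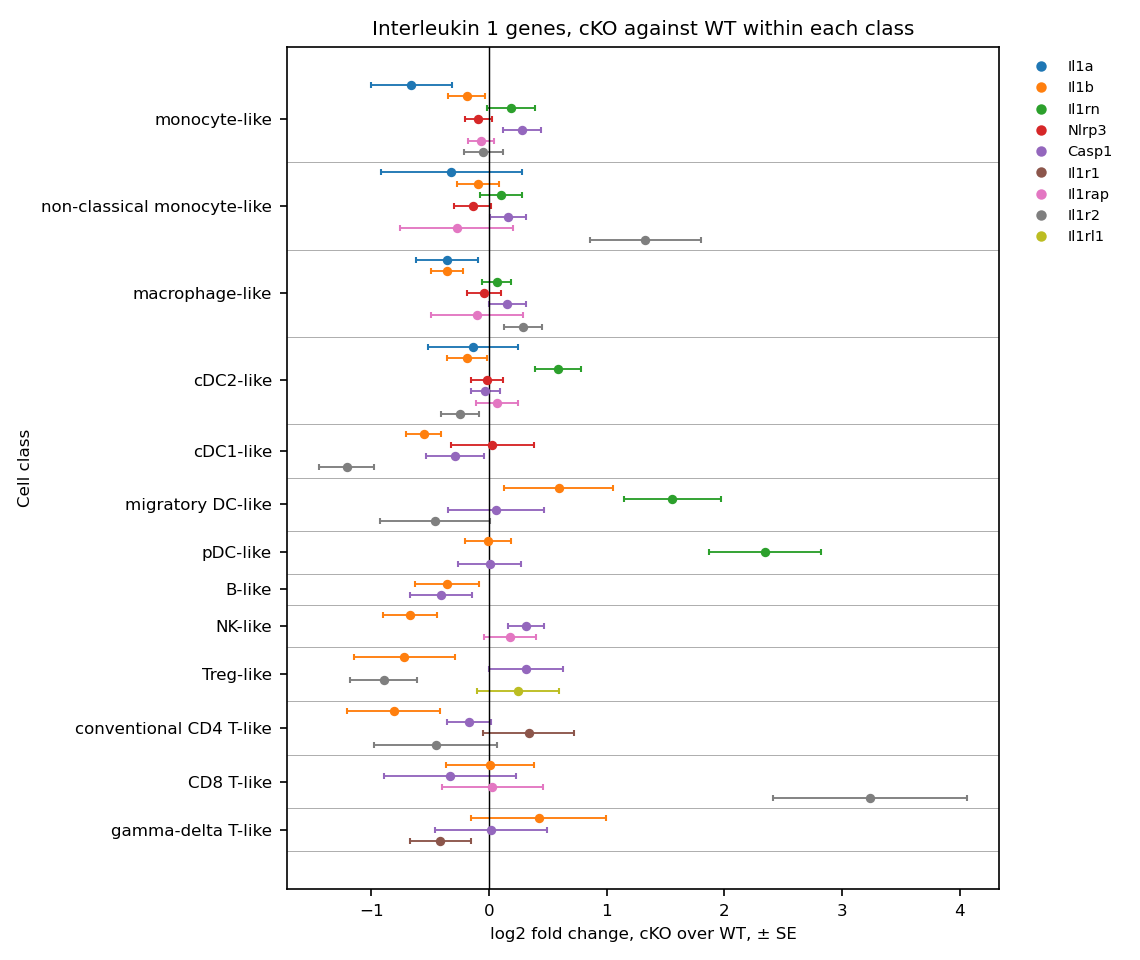
Log2 fold change of cKO over WT (across, with SE bars) for each gene that could be tested in each of 13 cell classes (down), 2 libraries per group. None has adjusted p under 0.05; Il1rn in pDC-like cells (2.35) and Il1r2 in CD8 T-like (3.24) and cDC1-like cells (-1.21) lie farthest from 0 or have the smallest p.

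Whether the genotype difference itself changed between classes was tested by interaction terms. Macrophage-like against monocyte-like cells gave 0 of 7 members, where 0.0258% of 11612 genes passed. Between cDC2-like and monocyte-like cells it was 0 of 8 (0% of 11621 genes), and between Treg-like and conventional CD4 T-like cells 0 of 6 (0.0486% of 8228 genes). DESeq2 called none either, and 1 of these 21 had p under 0.05: Casp1, whose cKO over WT difference was lower in cDC2-like than in monocyte-like cells by 0.32 on the log2 scale (-0.32 ± 0.10, adjusted p = 0.784). It was 71.4 and 86.7 CPM in cDC2-like cells of cKO libraries, against 75.3 and 81.8 CPM, and 106 and 140 CPM in monocyte-like cells, against 92.2 and 107 CPM.

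The wider pathway was read through 5 lists of genes: other family ligands, other family receptors, inflammasome and processing, MyD88 and IRAK signalling, and NF-kB feedback and IL-1 responsive genes. No gene of any list passed edgeR's quasi-likelihood test in any class for cKO against WT. With an unadjusted p under 0.05 were 4 of 17 NF-kB feedback and IL-1 responsive genes in monocyte-like cells, 4 of 14 in macrophage-like and 0 of 13 in cDC2-like cells, and of 14 inflammasome and processing genes 1, 0 and 2 in the same classes. Over all genes tested the share with such a p was 7.45% in monocyte-like, 3.26% in macrophage-like and 3.82% in cDC2-like cells. In monocyte-like cells the smallest p was that of Il18bp, which binds and blocks interleukin 18, at 52.1 and 54.1 CPM in cKO libraries, against 30.1 and 30.9 CPM in WT libraries (0.78 ± 0.11, adjusted p = 0.310). Saa3, an acute phase protein (15.5 and 31.2 CPM, against 8.09 and 9.82 CPM), and Casp4, a caspase that senses lipopolysaccharide (97.6 and 120 CPM, against 77.0 and 88.8 CPM), were also higher in both cKO libraries. So was Nos2 (2.94 and 3.77 CPM, against 1.52 and 1.44 CPM). Zc3h12a was lower in both (86.3 and 94.7 CPM, against 113 and 110 CPM). In macrophage-like cells Ptgs2, the prostaglandin synthase that interleukin 1 induces, stood at 24.7 and 24.9 CPM, against 38.1 and 36.3 CPM (-0.58 ± 0.15, adjusted p = 0.704). Cxcl1, a neutrophil attractant, stood at 1.0 and 3.71 CPM there, against 74.6 and 7.72 CPM, a gap made mostly by WT replicate 1. Higher there in both cKO libraries were Nos2 (11.8 and 18.5 CPM, against 11.2 and 8.09 CPM) and Il18bp (60.3 and 51.4 CPM, against 36.5 and 46.4 CPM). Il18r1 was higher too (2.59 and 3.44 CPM, against 0.80 and 0.98 CPM). In cDC2-like cells Naip2, an inflammasome receptor (22.8 and 25.3 CPM, against 18.2 and 17.8 CPM), and P2rx7, the ATP channel upstream of Nlrp3 (9.54 and 8.81 CPM, against 6.80 and 5.07 CPM), were higher in both cKO libraries without passing (adjusted p = 0.980 each).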

How the data were processed

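UMI counts per gene and cell were deposited by the authors for 4 libraries; per the file headers they came from Cell Ranger 6.1.1, and the submitters' processing notes list Seurat and CASAVA 1.8 as well. Build and annotation are not given in the sources used here. The rest was computed here. Cells under 300 genes or over 15% mitochondrial UMIs were dropped, the highest doublet scores were removed (0.8% per 1000 cells), and cells were clustered with scanpy 1.11.5 (2000 variable genes, 30 components, 20 neighbours, Leiden resolution 1). Clusters were named from fixed markers; naming rules and gates were set after clusters were seen. Of the IDs 31107 matched GENCODE M21. Counts were summed per class and library and tested in edgeR 4.0.16 (TMM, filterByExpr, quasi-likelihood, Benjamini-Hochberg, threshold 0.05), in classes with at least 20 cells per library, and checked on simulated data. DESeq2 1.42.0 and the other alternatives are in the closing section. Named genes were all 9 members, list genes that passed or else up to 3 with the smallest p in monocyte-like, macrophage-like and cDC2-like cells, and the 5 most alike by Pearson r; non-member marker genes beside a result were chosen after their values were seen. The members and lists were chosen with earlier results of these data known. Library depth was 64141857 to 79747752 UMIs; intervals and limits at 3 counts cover counting error only.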

Additional observations from a re-analysis of the deposited data

Results flagged for a closer look

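With 2 libraries per group no library could be tested as an outlier, and a result is given here where both cKO libraries lay on one side of both WT libraries in one class and on the opposite side in another. Casp1 met this in 5 classes: its log2 fold change of cKO over WT was 0.31 in NK-like, 0.32 in Treg-like and 0.16 in non-classical monocyte-like cells, and -0.41 in B-like and -0.17 in conventional CD4 T-like cells. The Treg-like against conventional CD4 T-like difference was tested as an interaction and did not pass (0.48 ± 0.34, adjusted p = 0.996); the other Casp1 differences were not tested. Il1r2 was higher in both cKO libraries in CD8 T-like (3.24) and macrophage-like cells (0.29) and lower in both in Treg-like (-0.90) and cDC1-like cells (-1.21). The macrophage-like value turned sign under the stricter cell filter (-0.066), in gated cells (-0.32) and within the Mmp12 (-0.0067) and Tmem119 clusters (-0.11), and the Treg-like one was 0.0079 in gated cells. Il1r1 was higher in both cKO libraries in conventional CD4 T-like cells (0.34) and lower in both in gamma-delta T-like cells (-0.41; 0.0083 in gated cells). The differences of Il1r2 and Il1r1 between these classes were not tested. In all, groups lay apart in 20 of the 59 member tests. The share over all genes was not counted, so these cases are not read as a pattern.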

How the results depend on the processing

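Of the members' log2 differences between classes, 278 values under alternatives kept their direction and side of the threshold, 3 became stronger and 5 weaker. For cKO against WT the tally covered only members with an unadjusted p under 0.05 or picked for the text, with single-cluster fits. There 268 kept both, 20 became stronger and 14 changed sign. No member passed for cKO against WT with DESeq2, DESeq2 size factors, doublets kept, resolution 2, the stricter cell filter or gated cells. Without the filter on low counts the members called were 1 in monocyte-like (Il1a), 1 in cDC2-like (Il1rn), 2 in cDC1-like (Il1b, Il1r2), 1 in migratory DC-like and 1 in pDC-like (Il1rn) and 1 in CD8 T-like cells (Il1r2), and 5 for Treg-like against conventional CD4 T-like cells. With a replicate block 1 was called in each of cDC1-like (Il1r2, adjusted p = 0.000606), migratory DC-like (Il1rn, 0.00340) and pDC-like cells (Il1rn, 9.52e-05); same-numbered libraries correlated at -0.056 to 0.212, the labels tie the numbers to no animal, and there are only 2 pairs. Leaving out each library in turn gave 0 to 1 in cDC2-like, 0 to 2 in cDC1-like, 0 to 2 in migratory DC-like, 0 to 1 in pDC-like and 0 to 1 in Treg-like cells, 3 to 6 for Treg-like against conventional CD4 T-like cells and 0 to 1 for the cDC2-like against monocyte-like interaction; a lone library is then assumed to vary like the other group. Signs turned in these cases, and the cause was not tested. Leaving out a library moved Il1rn in monocyte-like cells over -0.059 to 0.48, Il1a there over -1.14 to 0.035 and Il1rl1 in Treg-like cells over -0.28 to 0.67. Within clusters, tested one by one after the data were seen, Il1rn was -0.11 (interferon cluster) and -0.0097 (F13a1 cluster), Il1b 0.11 (F13a1 cluster) and 0.66 (cell cycle cluster), and Il1r2 in macrophage-like cells -0.0067 (Mmp12 cluster) and -0.11 (Tmem119 cluster). Il1r2 in macrophage-like cells was -0.066 under the stricter cell filter and -0.32 in gated cells; gated, Il1r2 in Treg-like cells was 0.0079 and Il1r1 in gamma-delta T-like cells 0.0083. Gating moved levels to 13256 CPM for Il1b, 2937 for Il1rn, 2337 for Il1r2 and 110 for Il1rap in neutrophil-like cells, and to 43.5 CPM for Il1r1 in gamma-delta T-like cells. For Il1r2 it gave 295 CPM in cDC2-like, 101 in monocyte-like, 69.7 in macrophage-like and 64.4 in conventional CD4 T-like cells, for Il1b 1869 in macrophage-like, 57.2 in pDC-like, 103 in Treg-like and 108 in conventional CD4 T-like cells, for Il1rn 278 in non-classical monocyte-like, 210 in macrophage-like and 2.89 in pDC-like cells, and for Nlrp3 58.7 in macrophage-like cells; doublets kept gave 1208 and 517 CPM of Il1b in macrophage-like and pDC-like and 279 in B-like cells. Over classes, genes called for cKO against WT numbered 0 to 7, with 0 to 23 in DESeq2, 0 to 271 without the filter, 0 to 79 with the block, 0 to 10 under the stricter filter and 0 to 151 without 1 library. Low counts limit Il1rn, Il1r2 and Il1rl1 in the small classes, and Il1a and Il1rap in lymphocytes.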

Other observations

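The interleukin 18 branch of the family had its own places. Il18r1, the ligand-binding chain of its receptor, was highest in gamma-delta T-like cells, with 268 and 256 CPM in cKO libraries and 267 and 235 CPM in WT libraries, and reached 193 ± 16.1 CPM in conventional CD4 T-like cells (SD, n = 4). Both classes were also those with the most Il1r1. Il18rap, the second chain, was highest in mast or basophil-like cells (173 ± 31.4 CPM) and NK-like cells (99.5 ± 11.9 CPM). Il18 itself averaged 81.4 ± 10.6 CPM in monocyte-like cells and was lower in macrophage-like cells by edgeR's quasi-likelihood test (-2.38 ± 0.09 on the log2 scale, adjusted p = 2.09e-11). Il36g, another family ligand, averaged 86.4 ± 26.2 CPM in neutrophil-like cells and 0.182 ± 0.100 CPM in monocyte-like cells.

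Of the clusters kept outside the classes, the one led by haemoglobin and complement genes (1507 cells) had Il1b at 153 ± 17.4 CPM and Il1rn at 55.8 ± 17 CPM. The T-like cluster that also carried myeloid RNA (506 cells, Foxp3 and Ctla4 among its leading genes) had Il1b at 169 and 823 CPM in cKO libraries, against 87.5 and 127 CPM in WT libraries, and Il1r2 at 16.0 and 62.4 CPM, against 56.7 and 44.8 CPM.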
